A study of Mus musculus with 12 samples.

Results

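A group of 10 RNAs, known to be held in the nucleus or to keep introns in part of their transcripts, was followed in the brain of Shank2-mutant mice given memantine. The genes were selected by symbol, and all 10 were found among the 19312 genes of the deposited table: Leng8, the kinase genes Clk1, Clk2 and Clk4, and Malat1, Neat1, Meg3, Miat, Snhg11 and Rian, known for their noncoding RNAs. The selection was made with results of these data known, and Leng8 was selected because its level was highest in memantine-treated knockouts, so its values in every comparison with that group are a description with no test. RNA was sequenced from 12 male C57BL/6N mice, 3 in each of 4 groups, collected at postnatal day 25. WT-Veh and WT-Mem mice were wild type, and KO-Veh and KO-Mem mice were homozygous for an allele of Shank2 that lacks exons 6 and 7, a gene which encodes a scaffold protein of excitatory synapses. From postnatal day 7 to 21, WT-Mem and KO-Mem mice received 20 mg/kg of memantine, a blocker of NMDA-type glutamate receptors, by mouth 2 times a day, while WT-Veh and KO-Veh mice received the vehicle, 0.1% saccharin. The mutation was present in the whole body, no driver line was involved, and each library came from 1 mouse without pooling. The labels call the tissue whole brain, while the methods describe the forebrain left after the cerebellum and brain stem were taken away.

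Many pre-mRNAs are transcribed and polyadenylated but keep some introns, and such transcripts stay in the nucleus until they are spliced or degraded. CLK kinases phosphorylate SR proteins, the serine- and arginine-rich splicing factors, and introns of Clk1 and Clk4 are themselves among the best known retained introns. Malat1 RNA gathers in nuclear speckles, where splicing factors are stored, Neat1 RNA is the scaffold of paraspeckles, and Meg3, Rian, Miat and Snhg11 are noncoding RNAs with high levels in neurons. Leng8 encodes a protein with the SAC3 domain found in factors of mRNA processing and export.

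Sequences of 5 of the genes are shown, with features by which such RNAs or promoters are known marked where they were found. Miat RNA holds repeats of TACTAAC (with U for T in the RNA), the intron branch point sequence that splicing factor SF1 binds. Its annotated transcript held 6 copies in 9163 bases, a number reached by 2 of 19295 genes (0.0104%), Miat included, and 3 of the copies lay within 132 bases at chr5:112217319-112217450 on the minus strand of GRCm38. They are shown because they mark this RNA among the others, with the capitals marking the repeats.
Miat: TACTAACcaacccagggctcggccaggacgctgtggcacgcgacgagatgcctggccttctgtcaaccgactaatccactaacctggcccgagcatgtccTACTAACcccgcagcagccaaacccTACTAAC
Malat1 RNA ends in an A-rich stretch that folds into a triple helix in place of a poly(A) tail, and the tRNA-like end that follows it is cut off. The 138 bases at chr19:5795922-5796059, minus strand, show that stretch of 18 bases in capitals, with the tRNA-like part after it.
Malat1: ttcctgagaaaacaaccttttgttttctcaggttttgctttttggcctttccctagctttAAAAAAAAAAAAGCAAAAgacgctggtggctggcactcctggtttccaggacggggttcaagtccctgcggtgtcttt
A promoter each of Leng8, Meg3 and Snhg11 is shown because the levels of these 3 genes followed each other most closely among the mice. Leng8 and Meg3 each have another RefSeq promoter, inside the annotated gene, which is not shown. Each stretch lies upstream of the RefSeq start in GRCm38.p6, was shortened where needed to end before the annotated gene, and is on the plus strand: Leng8 at chr7:4136806-4137038, Meg3 at chr12:109540746-109540995 and Snhg11 at chr2:158375463-158375637. The capitals mark matches on either strand to the GC box GGGCGG, the box named CCAAT, the ETS-type element CCGGAAG, the TATA box TATAAA and the cAMP response element TGACGTCA, where the TATAAA matches of Meg3 overlap each other on opposite strands.
Leng8: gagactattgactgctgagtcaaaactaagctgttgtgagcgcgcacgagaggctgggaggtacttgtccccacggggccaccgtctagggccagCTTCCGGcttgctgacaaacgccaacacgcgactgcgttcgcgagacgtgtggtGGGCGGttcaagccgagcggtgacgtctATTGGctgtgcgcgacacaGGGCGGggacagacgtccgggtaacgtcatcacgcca
Meg3: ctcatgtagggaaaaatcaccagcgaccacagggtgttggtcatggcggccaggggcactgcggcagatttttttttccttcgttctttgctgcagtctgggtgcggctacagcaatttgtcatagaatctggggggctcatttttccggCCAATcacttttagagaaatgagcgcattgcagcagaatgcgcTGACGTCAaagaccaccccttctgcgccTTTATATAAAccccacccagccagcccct
Snhg11: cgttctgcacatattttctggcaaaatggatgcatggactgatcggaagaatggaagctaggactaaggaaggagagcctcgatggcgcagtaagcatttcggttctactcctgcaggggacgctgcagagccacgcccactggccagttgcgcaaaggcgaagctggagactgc
The Leng8 stretch held 2 matches to GGGCGG and 1 each to CCAAT and to CCGGAAG, the Meg3 stretch held TGACGTCA, also CCAAT and also TATAAA, and the Snhg11 stretch held none of them. Among 32851 RefSeq promoters of 250 bases, 32.7% held GGGCGG, 33.8% CCAAT, 6.91% CCGGAAG, 12.4% TATAAA and 1.55% TGACGTCA. TGACGTCA was also found upstream of a RefSeq start of Clk4, at chr11:51262864-51263113, a stretch that lies inside the annotated gene. Promoter sequence was matched for 8 of the 10 genes, Clk1 and Neat1 being the ones not matched.

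In the GENCODE M21 annotation of GRCm38, Leng8 lies at chr7:4137039-4148177 with 10 transcripts, 3 of them of the retained-intron class. Clk1 (chr1:58410189-58424066) has 7 such transcripts of 13, Clk4 (chr11:51261730-51281766) 7 of 14, Clk2 (chr3:89164795-89176921) 4 of 11 and Snhg11 (chr2:158375638-158386145) 2 of 5, and this annotation classes Snhg11 as protein-coding, with 1 protein-coding transcript. None of the transcripts of Malat1 (chr19:5795690-5802672), Neat1 (chr19:5824708-5845478), Meg3 (chr12:109541001-109571726), Miat (chr5:112213228-112229395) and Rian (chr12:109603940-109661716) is in that class. Malat1 and Neat1 lie 22035 bases apart, and Meg3 and Rian 32213 bases apart in the imprinted Dlk1-Dio3 region. The table gives 1 value per gene, so spliced and intron-containing transcripts of a gene, and nuclear and cytoplasmic RNA, were not told apart. Leng9 overlaps Leng8 on the opposite strand with a mean normalized count of 225.5, against 16313 for Leng8, and counting by strand is not described.

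The unit throughout is the normalized count, an estimated number of reads per gene brought to the same scale in the 12 mice. These values summed to 30373849 to 31199251 per mouse, and the 10 genes held 0.999% to 1.34% of the sum. The worth of 1 read on this scale was not recovered. The check of the labels, Shank2 itself, lay at 7156 to 8548 in the 6 WT mice and at 2706 to 3178 in the 6 KO mice. Defining markers of neurons, astrocytes and oligodendrocytes were present in every mouse. Per kilobase of annotated exon, the mean normalized count over the 12 mice was 10812 for Meg3, 7488 for Snhg11, 3501 for Malat1, 2577 for Miat, 2551 for Leng8 and 1337 for Rian. It was 347.9 for Clk1, 305.8 for Clk4, 235.8 for Clk2 and 95.5 for Neat1, and the median gene was at 92.4. Miat and Leng8 were nearly level on this scale, and Meg3 had the second highest mean normalized count of the table before division by length.

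The 4 comparisons of pairs of groups follow from the design. Veh-K/W set KO-Veh against WT-Veh mice to find the baseline effect of the mutation, Mem-K/W set KO-Mem against WT-Mem mice, and KO-M/V and WT-M/V set memantine against vehicle within each genotype. The interaction subtracted the Veh-K/W log2 fold change from that of Mem-K/W. The comparisons share groups of mice, so their values stand side by side and are not independent of each other. In limma fits over all genes with a mean normalized count of at least 10, an adjusted p-value under 0.05 (Benjamini-Hochberg over all genes tested) was the threshold. In Veh-K/W, 0 of the 10 genes passed it, against 0.0283% of 17671 genes tested, and 1 (Neat1) had an unadjusted p-value under 0.05, against 14.4% of all genes. In Mem-K/W, 0 of the 9 genes other than Leng8 passed (0.068% of all genes), and 4 of them had an unadjusted p-value under 0.05 (21% of all genes), all 4 with higher values in KO-Mem mice (10.1% of all genes). In KO-M/V, 0 of the 9 passed (0% of all genes), and 2 of them had an unadjusted p-value under 0.05, against 8.88% of all genes. In WT-M/V, 0 of the 10 passed (0.0114% of all genes), and 1 (Malat1) had an unadjusted p-value under 0.05, against 3.97% of all genes. The interaction gave 0 of the 9 past the threshold (0% of all genes) and 2 at an unadjusted p-value under 0.05 (4.76% of all genes).

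Leng8 had the highest mean of the 4 groups in KO-Mem mice, with normalized counts of 21299, 19754 and 17550 (replicates 1 to 3, in this order throughout). The KO-Veh mice had 16107, 15705 and 17780, the WT-Veh mice 14518, 13584 and 17684, and the WT-Mem mice 13950, 14314 and 13505. All 3 KO-Mem mice were above all 3 WT-Mem mice, but KO-Mem replicate 3 was below KO-Veh replicate 3 and WT-Veh replicate 3, so KO-Mem was not separated from either vehicle group. The means were 19534 ± 1884 (SD, n = 3) in KO-Mem, 16531 ± 1101 in KO-Veh, 15262 ± 2149 in WT-Veh and 13923 ± 405 in WT-Mem mice. The difference of KO-Mem from WT-Mem mice was 0.48 on the log2 scale (SE 0.07), a factor of 1.40, and that from KO-Veh mice was 0.24 (SE 0.08), a factor of 1.18. Both are descriptions of the values that selected the gene.

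The comparisons of Leng8 that did not involve KO-Mem mice were tested, and neither passed the threshold. In Veh-K/W the log2 fold change was 0.12 (95% interval -0.09 to 0.33, adjusted p = 0.577 from limma), and in WT-M/V it was -0.12 (-0.33 to 0.08, adjusted p = 0.978 from limma). WT-Veh replicate 3, at 17684, lay far from its group: without it the Veh-K/W value was 0.23 and the WT-M/V value -0.01, while without WT-Veh replicate 2 they were 0.0429 and -0.20. The low spread of WT-Mem mice, with a coefficient of variation of 2.91%, stood against 14.1% in WT-Veh mice.

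Marker levels of several cell types moved with these groups. The summed normalized counts of 6 of 6 oligodendrocyte markers, none listed at 0, ranged from 237444 to 280479 in KO-Mem, 285943 to 305397 in KO-Veh, 294380 to 345277 in WT-Mem and 329081 to 407701 in WT-Veh mice. Those of 6 of 6 microglial markers ranged from 5197 to 5997 in KO-Mem, 6372 to 6428 in KO-Veh, 6486 to 6870 in WT-Mem and 6398 to 7996 in WT-Veh mice. Those of 5 of 5 red blood cell markers ranged from 5626 to 12528 in KO-Mem, 7567 to 18764 in KO-Veh, 13301 to 14809 in WT-Mem and 19447 to 26320 in WT-Veh mice. KO-Mem mice thus had the lowest sums for oligodendrocytes and microglia of all 12 mice, without overlap, while the red blood cell sums of KO-Mem and KO-Veh mice overlapped. Markers of neurons (8 of 8) ranged from 186554 to 192998 in KO-Mem, 187453 to 195985 in KO-Veh, 195912 to 201513 in WT-Mem and 173372 to 199632 in WT-Veh mice. Oligodendrocyte precursor markers (4 of 4) ranged from 8109 to 8949 in KO-Mem, 8752 to 9181 in KO-Veh, 9432 to 9956 in WT-Mem and 9703 to 10641 in WT-Veh mice, so every KO mouse was below every WT mouse. Endothelial markers (5 of 5) ranged from 4755 to 5738 in KO-Mem, 4832 to 5441 in KO-Veh, 5686 to 6206 in WT-Mem and 6213 to 6879 in WT-Veh mice. Markers of meninges and fibroblasts (5 of 5) ranged from 3378 to 5159 in KO-Mem, 4186 to 4842 in KO-Veh, 4654 to 5496 in WT-Mem and 6181 to 6745 in WT-Veh mice, and those of the choroid plexus (5 of 5) from 7349 to 14261, 11242 to 15676, 13148 to 14694 and 12648 to 14879 in the same order. Endothelial and meningeal sums were thus highest in WT-Veh mice, without overlap. Over the 12 mice, Pearson's r of the summed markers with Leng8 was -0.755 for red blood cells, -0.71 for choroid plexus, -0.699 for oligodendrocyte precursors, -0.668 for neurons, -0.606 for meninges and fibroblasts, -0.579 for endothelial cells, -0.562 for microglia, -0.554 for oligodendrocytes, -0.346 for astrocytes and 0.264 for cerebellar granule cells, as a description. The part of these markers in the levels of Leng8 or of the other genes was not tested, and in such bulk tissue a smaller number of cells of a type and less RNA in each cell cannot be told apart.

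**Figure D1:**
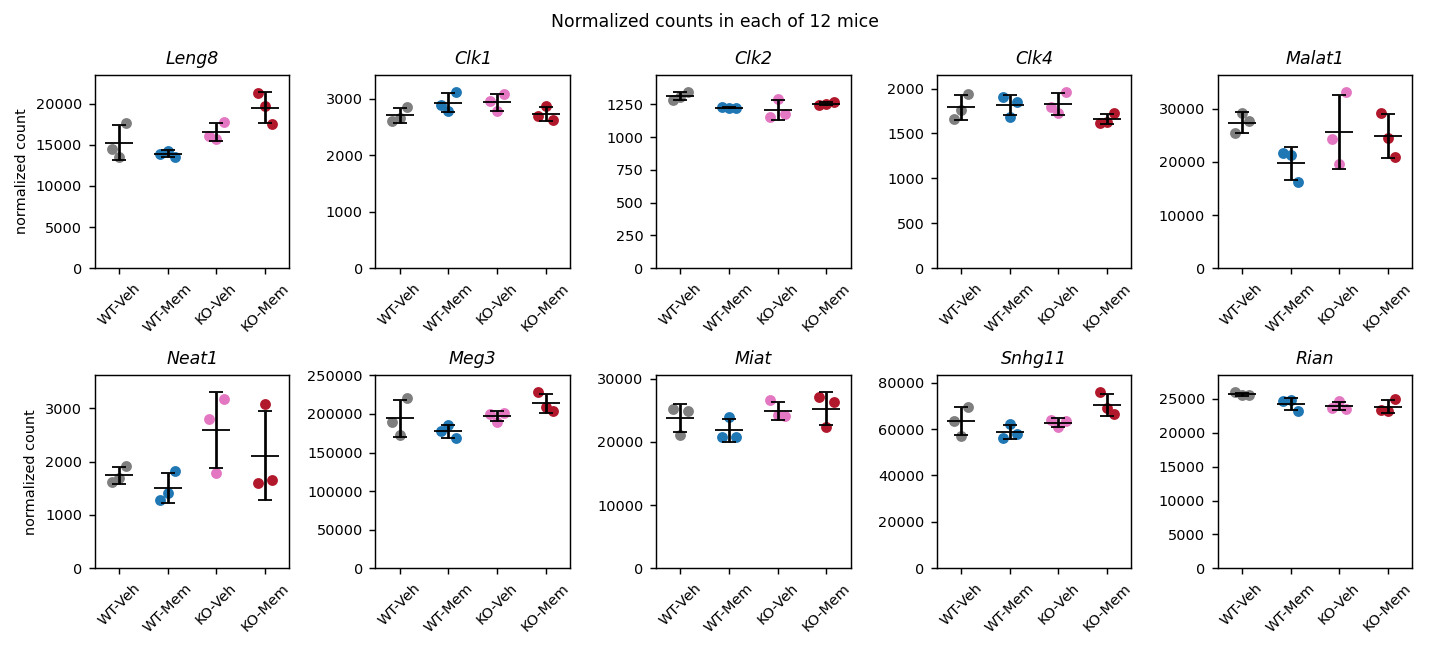
Normalized counts (linear axes from 0) of the 10 genes in each of the 12 mice, with replicates 1 to 3 from left to right within a group; points are mice, and the black marks are group means with SD (n = 3). Leng8 reached 21299 and 19754 in KO-Mem replicates 1 and 2, and Neat1 spanned the widest range, from 1281 to 3167.

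The group means of the CLK kinase genes were ordered differently from those of Leng8, and none was highest in KO-Mem mice. Clk1, whose kinase phosphorylates SR proteins, had normalized counts of 2696, 2866 and 2632 in KO-Mem and 2895, 2792 and 3119 in WT-Mem mice. It had 2959, 2785 and 3081 in KO-Veh and 2610, 2661 and 2851 in WT-Veh mice. The groups overlapped in all 4 comparisons of pairs, and KO-Mem and WT-Veh mice were the low groups. The log2 fold change was 0.12 in Veh-K/W (adjusted p = 0.435 from limma) and -0.10 in Mem-K/W (adjusted p = 0.416 from limma). The interaction, -0.22 (95% interval -0.42 to -0.02), had an unadjusted p-value of 0.0308 and an adjusted p of 0.947 from limma.

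Clk4, the closest relative of Clk1, was at 1618, 1631 and 1727 in KO-Mem and at 1797, 1729 and 1960 in KO-Veh mice. WT-Mem mice had 1905, 1686 and 1851, and WT-Veh mice 1664, 1765 and 1942. All 3 KO-Mem mice were below all 3 KO-Veh mice, though KO-Mem replicate 3 (1727) and KO-Veh replicate 2 (1729) nearly met, and the other pairs of groups overlapped. The KO-M/V log2 fold change was -0.14 (95% interval -0.29 to 0.01, adjusted p = 0.568 from limma). In KO-M/V, 3 of the 9 genes other than Leng8 had groups that did not overlap, against 13.9% of all genes, namely Clk4, which was lower, and Meg3 and Snhg11, which were higher.

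Clk2, another kinase of the family, varied least among mice within the memantine groups, with 1247, 1252 and 1269 in KO-Mem and 1232, 1221 and 1223 in WT-Mem mice. Their coefficients of variation, 0.9% and 0.485%, were below the 2.82% and 2.86% that counting error alone would give if 1 read were worth 1. These groups did not overlap, yet they differed by a log2 fold change of only 0.04 (95% interval -0.12 to 0.19, adjusted p = 0.796 from limma). KO-Veh mice had 1153, 1293 and 1173 and WT-Veh mice 1282, 1307 and 1343, which overlapped through KO-Veh replicate 2 (log2 fold change -0.12, adjusted p = 0.464 from limma). In Mem-K/W, 3 of the 9 genes had groups that did not overlap, Clk2, Meg3 and Snhg11, all with higher values in KO-Mem mice, against 12.7% of all genes in that direction. The direction was chosen after these values were seen, and the larger share for both directions is not given here. The 12.7% is thus not on the same footing as the share for KO-M/V, which covers both directions.

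Meg3, an imprinted RNA made from the maternal chromosome, and Snhg11, a host gene of small nucleolar RNA, were, like Leng8, highest on average in KO-Mem mice. Meg3 had normalized counts of 227805, 209301 and 203626 in KO-Mem mice and 177724, 186030 and 168869 in WT-Mem mice. KO-Veh mice had 200482, 189308 and 201426, and WT-Veh mice 189143, 172541 and 220720. Every KO-Mem mouse was above every WT-Mem and every KO-Veh mouse, and WT-Veh replicate 3 was above KO-Mem replicates 2 and 3. The Mem-K/W log2 fold change was 0.27 (SE 0.06, 95% interval 0.13 to 0.40, unadjusted p = 0.00119 and adjusted p = 0.0886 from limma), and the KO-M/V value was 0.11 (0.0017 to 0.23, adjusted p = 0.56 from limma). Without KO-Mem replicate 3 the Mem-K/W value was 0.30 and passed the threshold (adjusted p = 0.0179 from limma), when 1911 genes passed in place of 12. Without KO-Mem replicate 1 the Mem-K/W value was 0.22 (adjusted p = 0.288 from limma). With any mouse of Mem-K/W other than KO-Mem replicate 3 left out, the adjusted p was 0.156 to 0.292 from limma.

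Snhg11 had 75742, 68987 and 66337 in KO-Mem mice and 56078, 62179 and 57848 in WT-Mem mice. KO-Veh mice had 63984, 60697 and 63569, and WT-Veh mice 63638, 57188 and 69429. As for Meg3, KO-Mem mice were above all WT-Mem and KO-Veh mice, and WT-Veh replicate 3 was within the KO-Mem range. The log2 fold change was 0.26 in Mem-K/W (SE 0.06, 95% interval 0.12 to 0.40, adjusted p = 0.0957 from limma) and 0.16 in KO-M/V (0.04 to 0.28, adjusted p = 0.554 from limma). Without KO-Mem replicate 3 the Mem-K/W value was 0.30 with an adjusted p of 0.0215 from limma. Without KO-Mem replicate 1 it was 0.21 (adjusted p = 0.303 from limma). With any mouse of Mem-K/W other than KO-Mem replicate 3 left out, the adjusted p was 0.163 to 0.303 from limma. In Veh-K/W neither gene stood apart, with log2 fold changes of 0.03 for Meg3 (adjusted p = 0.912 from limma) and -0.01 for Snhg11 (adjusted p = 0.959 from limma). The interaction of Snhg11 was 0.27 (95% interval 0.05 to 0.50, unadjusted p = 0.0218, adjusted p = 0.947 from limma), and that of Meg3 was 0.24 (-0.01 to 0.49, adjusted p = 0.947 from limma).

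Malat1, the speckle RNA whose end is shown above, was lowest in WT-Mem mice, at 21773, 21310 and 16221, against 25397, 29141 and 27741 in WT-Veh mice. No WT-Mem mouse reached a WT-Veh mouse. The means were 19768 ± 3081 (SD, n = 3) and 27426 ± 1892, a log2 fold change of -0.48 in WT-M/V (SE 0.11, 95% interval -0.73 to -0.24). The unadjusted p-value was 0.0014 and the adjusted p 0.978 from limma, so the difference did not pass over 17564 genes. In WT-M/V, 3 of the 10 genes had groups that did not overlap, Malat1, Clk2 and Rian, all with lower values under memantine, against 5.19% of all genes in that direction. Here too the direction was chosen after the values were seen, and the larger share for both directions is not given.

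In KO mice Malat1 was widely spread, with KO-Veh mice at 24231, 19573 and 33145 and KO-Mem mice at 29239, 24581 and 21007. These groups overlapped each other, and KO-Mem replicate 3 lay within the WT-Mem range. The KO-M/V log2 fold change was -0.02 (95% interval -0.42 to 0.38, adjusted p = 0.978 from limma), and the Mem-K/W value was 0.33 (0.04 to 0.63, adjusted p = 0.189 from limma). Without KO-Mem replicate 3 the Mem-K/W value was 0.45 and passed (adjusted p = 0.0475 from limma), and without WT-Mem replicate 3 it was 0.20 (adjusted p = 0.366 from limma). The interaction was 0.46 (-0.04 to 0.96, adjusted p = 0.947 from limma). Libraries were made from poly(A)-selected RNA, and the part of that selection in the levels of Malat1 and Neat1 was not tested.

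Neat1, the paraspeckle RNA, had the widest range of the 10 genes, from 1281 in WT-Mem replicate 1 to 3167 in KO-Veh replicate 3, a factor of 2.47. The 3 mice with the highest values were KO mice: KO-Veh mice had 2786, 1792 and 3167 and KO-Mem mice 1601, 3074 and 1657. WT-Veh mice had 1608, 1690 and 1921 and WT-Mem mice 1281, 1405 and 1824. KO-Veh replicate 2 and KO-Mem replicates 1 and 3 lay among the WT mice, so the genotypes overlapped under both treatments. The Veh-K/W log2 fold change was 0.53 (SE 0.17, 95% interval 0.15 to 0.91, unadjusted p = 0.0109 and adjusted p = 0.236 from limma), and the Mem-K/W value was 0.44 (-0.07 to 0.94, adjusted p = 0.295 from limma). Without KO-Veh replicate 2 the Veh-K/W value was 0.78 and passed (adjusted p = 0.0267 from limma, when 53 genes passed in place of 5), and without KO-Veh replicate 3 it was 0.36 (adjusted p = 0.576 from limma). Without KO-Mem replicate 2 the Mem-K/W value was 0.13. KO-Veh replicate 3 had the highest values of both Malat1 and Neat1 and stood apart in the summed normalized count of 5 of 5 cerebellar granule cell markers, of which 1 was listed at 0 in some mouse, at 4715 against 2180 to 2622 in the other 11 mice; the part of these markers in the result was not tested.

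Miat, a neuronal RNA, had 27082, 22366 and 26380 in KO-Mem and 20791, 23891 and 20778 in WT-Mem mice. KO-Veh mice had 26606, 24176 and 24049, and WT-Veh mice 25206, 21167 and 24907. KO-Mem replicate 2 was below WT-Mem replicate 2, and all pairs of groups overlapped. The Mem-K/W log2 fold change was 0.21 (95% interval 0.02 to 0.40, unadjusted p = 0.0308, adjusted p = 0.193 from limma), and the other comparisons of pairs gave -0.12 to 0.07.

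Rian, a small nucleolar RNA host in the same imprinted region as Meg3, was the steadiest of the genes, with a factor of 1.12 between its highest and lowest mouse. WT-Veh mice had 25905, 25571 and 25468, WT-Mem mice 24664, 24733 and 23141, KO-Veh mice 23659, 24582 and 23449, and KO-Mem mice 23269, 23206 and 24983. All WT-Veh mice were above all 9 other mice. In Veh-K/W, Rian was the 1 gene of the 10 whose groups did not overlap, against 20.4% of all genes, with a log2 fold change of -0.10 (95% interval -0.23 to 0.02, adjusted p = 0.431 from limma). In Mem-K/W it was -0.02 (-0.15 to 0.10, adjusted p = 0.852 from limma), beside 0.27 for Meg3 from the same region.

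**Figure D2:**
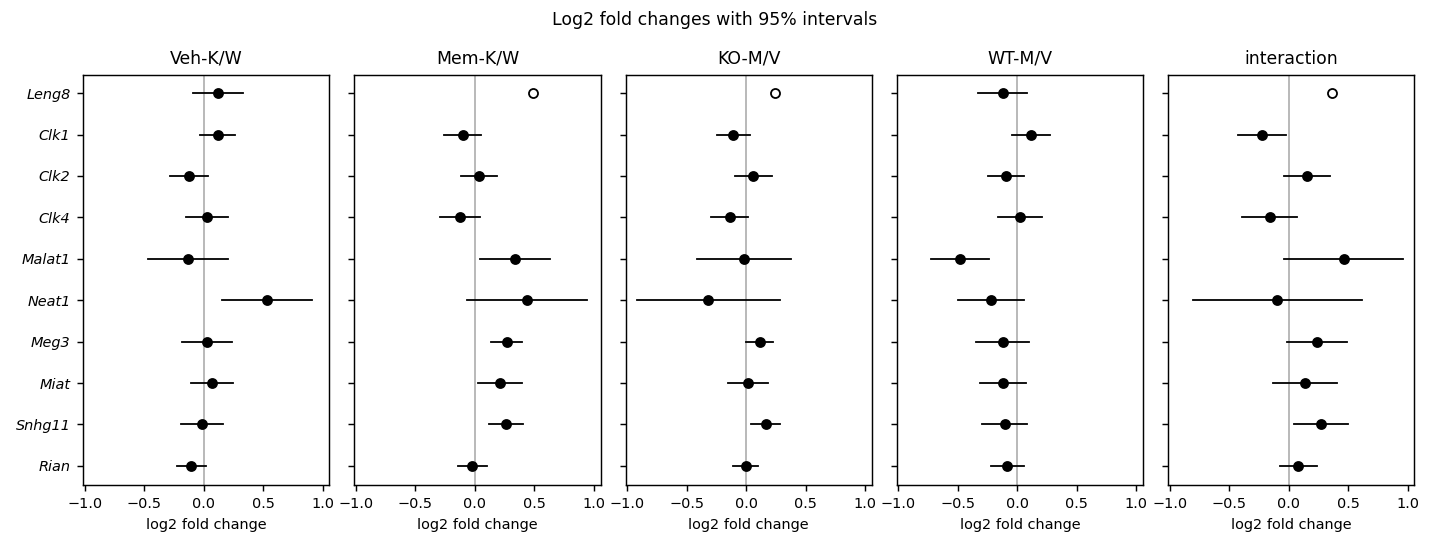
Log2 fold changes of the 10 genes in each comparison of pairs of groups and in the interaction, with 95% intervals from limma (6 mice in each comparison of pairs, 12 in the interaction). Open circles without an interval are the values of Leng8 in comparisons with KO-Mem mice, which were not tested; Meg3 and Snhg11 lie at 0.27 and 0.26 in Mem-K/W and Malat1 at -0.48 in WT-M/V.

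Over the 9 genes other than Leng8, the median log2 fold change was 0.21 in Mem-K/W, where it was 0.0022 over all genes tested, with 6 of the 9 above 0. It was 0.03 in Veh-K/W, while KO-M/V gave -0.01 and WT-M/V gave -0.11, where 7 of the 9 were below 0, against medians over all genes of 0.0017, -0.0013 and 0.0002. In Mem-K/W the values of the 3 kinases ranged from -0.13 to 0.04. Rian was at -0.02, and Malat1, Neat1, Meg3, Miat and Snhg11 ranged from 0.21 to 0.44.

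The likeness of levels among mice was measured as Pearson's r with Leng8 of log2 values over the 12 mice, which share 1 normalization, and is a description. Meg3 had r = 0.933 (Spearman's rho 0.965), rank 20 of 14240 genes with a mean of at least 50, and Snhg11 had r = 0.913 (rho 0.86), rank 43. Taken as deviations from the group means, so that the group pattern that selected Leng8 no longer entered, r was 0.918 for Meg3 and 0.856 for Snhg11. Without the 2 mice whose Leng8 values were farthest from the median, KO-Mem replicates 1 and 2, r was 0.926 and 0.832. The others were less alike, with r of 0.593 for Miat, 0.472 for Malat1, 0.46 for Neat1, -0.011 for Clk2, -0.079 for Clk1, -0.274 for Clk4 and -0.432 for Rian. As deviations from the group means, r was 0.551 for Malat1, 0.483 for Clk1, 0.361 for Clk4, 0.293 for Miat, 0.27 for Neat1, -0.047 for Clk2 and -0.403 for Rian, so that the signs of Clk1 and Clk4 were opposite to those over all 12 mice. Of all 14240 genes, 3.34% had r above 0.8, so a close likeness to Leng8 was not rare.

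Among pairs of the 10 genes, Meg3 and Snhg11 had the highest r (0.953, or 0.927 as deviations from the group means). Clk1 and Clk4 had r = 0.638, the highest among the kinases, whereas the neighbours Malat1 and Neat1 had 0.359 and the neighbours Meg3 and Rian -0.202. The 5 genes most like Leng8 were 5031425E22Rik (r = 0.959), Spaca6 (0.958), Hp1bp3 (0.956), which encodes a heterochromatin protein, Ssrp1 (0.955), a subunit of the histone chaperone FACT, and Arfgap1 (0.954), a regulator of the GTPase Arf1. Spaca6, for example, had 1841, 1696 and 1195 in KO-Mem and 863, 919 and 1021 in WT-Mem mice, with 1373 in WT-Veh replicate 3 against 886 and 864 in the other WT-Veh mice. The same 3 mice, KO-Mem replicates 1 and 2 and WT-Veh replicate 3, were the highest for Spaca6, and they were also the 3 highest for Meg3 and Snhg11.

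**Figure D3:**
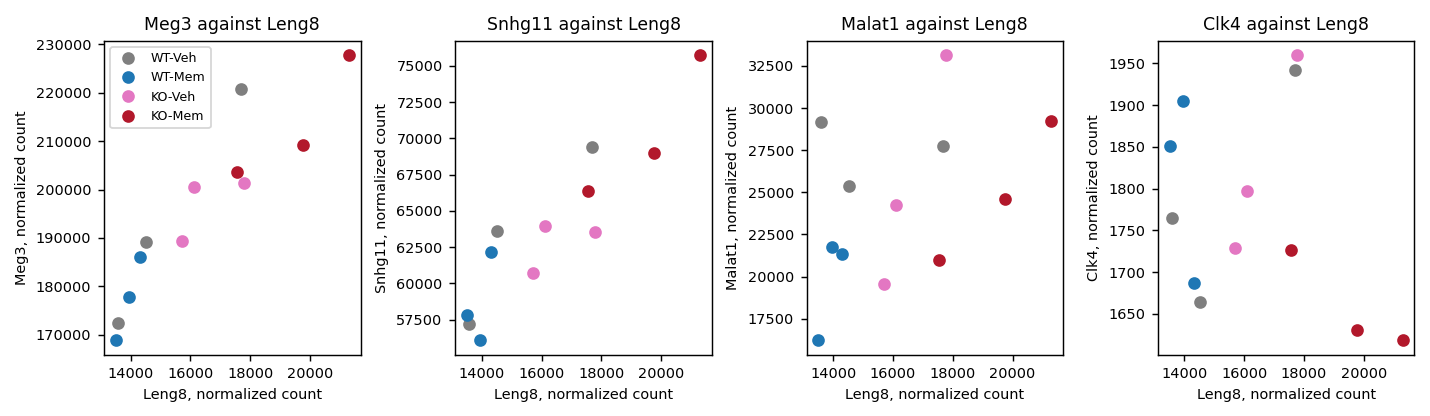
Normalized counts of Meg3, Snhg11, Malat1 and Clk4 against those of Leng8, 1 point per mouse and colours for the groups; axes do not start at 0. Meg3 (r = 0.933) and Snhg11 (r = 0.913) lie along a line on which KO-Mem replicate 1 is the top point, while Malat1 (r = 0.472) and Clk4 (r = -0.274) do not.

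The wider pathways were described through 9 lists of genes, and no listed gene that was tested passed the threshold in any of the 5 comparisons. Leng8, which is in 1 of the lists, was not tested in comparisons with KO-Mem mice. Without KO-Mem replicate 3, 12 of the 90 listed genes outside the group of 10 passed in Mem-K/W, when 1911 of all 17633 genes tested did, and without KO-Veh replicate 2 Dlk1, a Notch ligand family gene, passed in Veh-K/W (log2 fold change 0.56, adjusted p = 0.0372, limma). Of the 13 CLK and related splicing kinases 12 were in the table, and their median log2 fold change in Mem-K/W was -0.06, with 5 above 0 and 7 below. The kinase with the smallest unadjusted p in Mem-K/W, and in KO-M/V too, was Dyrk1a, a dosage-sensitive kinase of brain development, at 3161, 2614 and 2604 in KO-Mem against 2345, 2348 and 2033 in WT-Mem mice. Its groups did not overlap in either comparison (Mem-K/W log2 fold change 0.31, adjusted p = 0.125, KO-M/V 0.19, adjusted p = 0.555, both from limma).

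SR proteins, the substrates of the CLK kinases, were divided in Mem-K/W, with 7 of 13 above 0 and a median of 0.10. Tra2a, a regulator of exon inclusion, was at 1050, 1376 and 1975 in KO-Mem and at 2317, 2503 and 2213 in WT-Mem mice. Every KO-Mem mouse was below every WT-Mem mouse, with a Mem-K/W log2 fold change of -0.72 (adjusted p = 0.0974, limma), or -0.96 without KO-Mem replicate 3 (adjusted p = 0.00241, limma). Every KO-Veh mouse was likewise below every WT-Veh mouse (-0.36, adjusted p = 0.162, limma). Srsf11 had the smallest unadjusted p of the list in KO-M/V, at 6512, 5854 and 5767 in KO-Mem and 5020, 5528 and 5505 in KO-Veh mice (log2 fold change 0.18, adjusted p = 0.554 from limma).

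Nuclear speckle genes were mostly above 0 in Mem-K/W (12 of 15, median 0.07) and mostly below 0 in WT-M/V (14 of 15, median -0.07). Luc7l3, a splicing factor gene of the U1 complex, was at 4800, 4988 and 4695 in KO-Mem and 3936, 4305 and 4170 in WT-Mem mice, without overlap (log2 fold change 0.22, adjusted p = 0.112 from limma). Ccnl2, a cyclin of the speckles, had a KO-M/V log2 fold change of 0.16 (adjusted p = 0.554 from limma). Paraspeckle protein genes gave 9 of 11 above 0 in Mem-K/W (median 0.07), and the smallest unadjusted p was that of Sfpq, at 0.23 (adjusted p = 0.132 from limma, or 0.0413 without KO-Mem replicate 3), and in KO-M/V that of Hnrnpm, at 0.13 (adjusted p = 0.555 from limma). Rbm14, another paraspeckle protein gene, named here after its values were seen, was on the other side of 0 in Mem-K/W, at -0.26 without overlap of the groups (adjusted p = 0.132 from limma), and at 0.50 in WT-M/V (adjusted p = 0.953 from limma). Nuclear RNA decay genes gave 9 of 11 above 0 in Mem-K/W (median 0.12), and the smallest unadjusted p was that of Pabpn1, the nuclear poly(A) binding protein gene, at 0.28 (adjusted p = 0.116 from limma, or 0.0178 without KO-Mem replicate 3) and in KO-M/V at 0.17 (adjusted p = 0.557 from limma). Dis3, a ribonuclease of the RNA exosome, was larger in both, at 0.55 (adjusted p = 0.159 from limma) and 0.22 (adjusted p = 0.673 from limma). Its groups overlapped in both, and it too was picked with its values in view. In Veh-K/W Dis3 was at 0.33 without overlap (adjusted p = 0.241 from limma).

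Small nucleolar RNA host genes had the highest list median in Mem-K/W, 0.26, with 11 of 14 above 0, and a median of 0.15 in KO-M/V with 10 of 14 above 0. Snhg1 had the smallest unadjusted p in KO-M/V, at 302.1, 252.1 and 282.2 in KO-Mem and 217.5, 204.6 and 220.5 in KO-Veh mice, which did not overlap (log2 fold change 0.38, adjusted p = 0.554 from limma). Snhg11 had the smallest unadjusted p of the list in Mem-K/W, while 7 other genes of the list had larger log2 fold changes there. The largest was 0.68 for Snhg3 (adjusted p = 0.301 from limma), which was named after its value was seen. Its levels were low, and its groups overlapped, at 158.8, 90.1 and 63.1 in KO-Mem and 38.8, 72.2 and 77.6 in WT-Mem mice. The list of nuclear long noncoding RNAs, which holds Malat1, Neat1, Meg3, Miat and Rian themselves, had a median of 0.21 in Mem-K/W (7 of 13 above 0) and -0.12 in WT-M/V (11 of 13 below 0). These medians are the values of Miat and of Meg3. Of its genes outside the group, Kcnq1ot1 (0.43), Rmst (0.63) and Snhg14 (0.27) were above 0 in Mem-K/W. The rest, Tug1, Peg13, Firre, Mirg and Pantr1, were below 0, at -0.35 to -0.01. The Dlk1-Dio3 region, which holds Meg3 and Rian, had a median of 0.20 in Mem-K/W (5 of 8 above 0), and genes of the SAC3 and TREX-2 group, which holds Leng8, had a median of 0.05 (5 of 8 above 0).

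**Figure D4:**
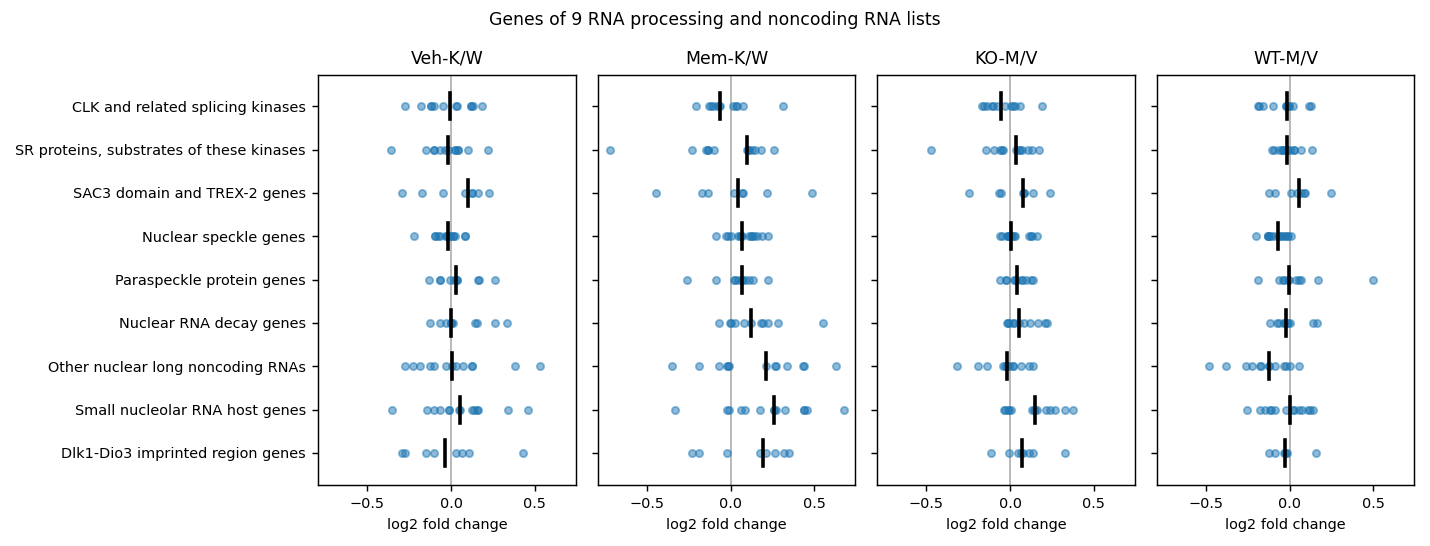
Log2 fold changes of the genes of 9 lists in the 4 comparisons of pairs of groups; each point is a gene and each black bar the median of its list. In Mem-K/W the medians of small nucleolar RNA host genes (0.26) and nuclear long noncoding RNAs (0.21) lie farthest above 0, and in WT-M/V 14 of 15 nuclear speckle genes lie below 0. The long noncoding RNA list holds Malat1, Neat1, Meg3, Miat and Rian, and its Mem-K/W median is the value of Miat.

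The annotation gave a wider view of intron-retaining genes. Genes with at least 5 transcripts of the retained-intron class, which include Clk1 and Clk4, numbered 992 in Mem-K/W, where 58.2% were above 0 (median 0.04), against 50.3% of all genes tested. In KO-M/V 57.7% of them were above 0 (49.7% of all genes), while Veh-K/W had 51.3% (50.4%) and WT-M/V had 45% (50%). Of genes with at least 3 such transcripts, which add Leng8 and Clk2, 55.2% were above 0 in Mem-K/W and 55.9% in KO-M/V. With at least 1, which adds Snhg11, the shares were 51.1% and 51.5%. Clk1 and Clk4 themselves were below 0, at -0.10 and -0.13 in Mem-K/W and -0.11 and -0.14 in KO-M/V. Among genes of long noncoding types, 63% were above 0 in Mem-K/W (median 0.14, 1688 genes) and 60.9% in Veh-K/W (median 0.09), against 46% in WT-M/V. Of the 474 genes with a mean normalized count of at least 10000, to which Leng8, Malat1, Meg3, Miat, Snhg11 and Rian belong, 39.9% were above 0 in Mem-K/W (median -0.03) and 67.9% in WT-M/V (median 0.03). These are shares of genes, which are not independent of each other, and they carry no test.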

How the data were processed

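RNA from the brain of 12 mice, 3 per group, was measured by poly(A)-selected RNA-Seq on GRCm38. The deposited signal values are normalized read counts: the authors estimated transcript abundance with Salmon 1.1.0, summed it to genes with tximport and divided it by DESeq2 normalization factors (DESeq2 1.26.0 and R 3.6.2 in the submitters' processing notes). They are not whole counts, and gene-specific length factors may be included, so whole reads were not recovered and no count test was run. The annotation release, the gene filter and the strand setting are not given in the sources used here. Gene models were from GENCODE M21 (19295 of 19312 genes matched).

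Each comparison was fitted on its own 6 mice, and the interaction on all 12, with limma 3.58.1 (eBayes with a mean-variance trend) in R 4.3.3, on log2(value + 1), for genes whose mean over those mice was 10 or more. Fold changes are on that scale. P-values were adjusted by Benjamini-Hochberg over all genes tested, with a threshold of 0.05, and the steps were tested on simulated data. Groups and replicate numbers came from the labels, mice are separate animals, and sharing a number was not treated as pairing. Members and gene lists were chosen with earlier results of these data known. Genes named by rule were the 10 members, the gene of each list with the smallest unadjusted p in Mem-K/W and in KO-M/V, and the 5 genes most like Leng8 by Pearson's r. Rbm14, Dis3, Snhg3, Agpat5, Ywhah and Acot7 were named after their values were seen. Dlk1 was named because it passed without KO-Veh replicate 2. The nuclear long noncoding RNA list was named in full. Motifs were searched on both strands of RefSeq promoters with Python 3.11.15. The alternatives were a pseudocount of 5, a mean of at least 50, no filter, an equal sum in each mouse, a replicate block, 1 fit over 12 mice, and each mouse left out; correlations without the 2 farthest mice were added after seeing the data.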

Additional observations from a re-analysis of the deposited data

How the results depend on the processing

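If 1 read were worth 1, the depth gave Leng8 counting errors of 0.715% to 0.847%, which leave out other technical noise. The number of genes past the threshold depended on the settings. Veh-K/W gave 5 genes, and 3 with a pseudocount of 5, 2 each with a mean of at least 50, with the replicate block and with 1 fit over 12 mice, and 2 to 53 with each mouse left out. Mem-K/W gave 12, and 5 with no filter, 4 with the replicate block, 636 with 1 fit over 12 mice, and 2 to 1911 with each mouse left out, the most without KO-Mem replicate 3. WT-M/V gave 2, and 1 with a pseudocount of 5 and with the replicate block, 0 with a mean of at least 50 and with 1 fit over 12 mice, and 1 to 3 with each mouse left out. KO-M/V gave 0 to 97 and the interaction 0 to 4 with each mouse left out, the most without KO-Mem replicate 3 in both. The cause was not tested.

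Leng8 was not counted in comparisons with KO-Mem mice. Members past the threshold, so counted, numbered 0 under every planned setting that kept all mice. With each mouse left out they numbered 0 to 1 in Veh-K/W (Neat1, without KO-Veh replicate 2) and 0 to 3 in Mem-K/W (Malat1, Meg3 and Snhg11, without KO-Mem replicate 3). In those fits 53 of 17682 and 1911 of 17633 genes tested passed. Of the 90 other listed genes, Srsf11, Tra2a and Snhg1 passed in Mem-K/W with 1 fit over 12 mice (adjusted p of 0.0357 to 0.0485 from limma). In that fit 636 of all 17655 genes tested passed. Signs turned only for small differences. Snhg11 in Veh-K/W was 0.0045 with an equal sum in each mouse and -0.0835 to 0.0564 with each mouse left out. On leaving out each mouse, the Veh-K/W values ranged from -0.0195 to 0.0917 for Clk4, -0.33 to 0.0496 for Malat1, -0.0527 to 0.12 for Meg3 and -0.0081 to 0.12 for Miat. Clk4 ranged from -0.0312 to 0.0801 in WT-M/V. In KO-M/V Malat1 ranged from -0.20 to 0.18, Miat from -0.0367 to 0.10 and Rian from -0.0401 to 0.0153, and the interaction of Neat1 ranged from -0.40 to 0.0724. The r of Clk4 with Leng8 was 0.325 and that of Rian -0.062 without the 2 mice farthest in Leng8.

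No pairing of the mice by number is described, and the main fits did not pair them. The correlations of same-numbered deviations lay between -0.175 and 0.08. Of the 6 mice of a comparison, 3 correlated best with their own number in Veh-K/W, 2 in Mem-K/W, 3 in WT-M/V and 0 in KO-M/V. With so few mice, these values cannot decide whether mice of a number had something in common.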

Other observations

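The genes whose levels ran most opposite to Leng8 over the 12 mice were Agpat5 (r = -0.983), an acyltransferase of phospholipid synthesis, Ywhah (r = -0.981), a 14-3-3 protein gene, and Acot7 (r = -0.98), an acyl-CoA thioesterase of neurons. They were picked after their values were seen. As deviations from the group means, r was -0.942 for Agpat5, -0.982 for Ywhah and -0.978 for Acot7, so the opposite order was also present among mice of 1 group. Without KO-Mem replicates 1 and 2, the mice farthest in Leng8, r was -0.972, -0.968 and -0.964.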
